A study of Rattus norvegicus with 16 samples.

Results

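Livers of rat pups exposed to the same chemical mixture at 2 doses were compared with each other. The groups were M, whose dams received the mixture at 1.0 mg/kg/day, and 0.5M, whose dams received it at 0.5 mg/kg/day. They were chosen by their titles as 4 of 16 arrays each, and the reported fit used these 8 arrays alone. The mixture held organochlorine pesticides, polychlorinated biphenyls (PCBs) and methylmercury in corn oil. All pups were male Sprague-Dawley rats sampled on postnatal day 21, and all stayed with their birth mothers. The dams were dosed through gestation and lactation, so pups met the mixture in the womb and through milk. Each array held liver RNA pooled from 2 of the 8 pups of a group, labelled with Cy5, against a universal reference RNA from rat cell lines, labelled with Cy3. Litters are not named in the labels. The dams were dosed and each array was taken as an independent sample, so if littermates lay on different arrays of a group, the true error would be larger than the one given. Levels of the corn oil controls (C, 4 arrays) are given as description and did not enter the reported fit. An alternative fit took in all 16 arrays. It added these controls and a group exposed to aryl hydrocarbon receptor agonists (4 arrays, 1.8 ng/kg/day in toxic equivalents).

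Chlorinated chemicals of these kinds act on the liver through receptors that switch on genes of chemical clearance. The aryl hydrocarbon receptor (AhR) binds dioxin-like compounds and drives the Cyp1 genes from DNA elements with the core GCGTG. The constitutive androstane receptor (CAR) and the pregnane X receptor (PXR) answer to phenobarbital-like chemicals, which include many PCBs and pesticides, and drive Cyp2b and Cyp3a genes. The enzymes they induce oxidise a chemical first, and transferases then attach glutathione, glucuronic acid or sulfate. Liver is also the main site of cholesterol and fatty acid synthesis, whose enzymes are largely controlled by the SREBP transcription factors. As bulk tissue was measured, fewer cells of a type and less RNA per cell cannot be told apart.

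The 8 arrays differed in brightness and in what other tissue they held. Between 7082 (M 1) and 14589 (M 3) of 30367 probes were marked well above background in Cy5, and on every array so were 9 or 10 of 10 defining hepatocyte markers such as albumin. M 1 was the highest array for 8 of these 10 markers. Their mean log2 ratio was 0.59 there and -0.14 to 0.23 elsewhere. M 2 and 0.5M 4 carried skeletal muscle RNA: 23 of 24 muscle markers exceeded all 6 remaining arrays, by a median of 4.30 on the log2 scale. In M 1, 15 of 20 exocrine pancreas markers exceeded the 7 remaining arrays, by a median of 0.77. Replicates 1 and 2 of each group lay on slide 1 and replicates 3 and 4 on slide 2. Slide was a term of the model, and within these 8 arrays 0 transcripts differed between slides at the threshold used here. Standard errors of the log2 differences had a median of 0.107. Precision is limited by having 4 arrays in a group.

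**Figure D1:**
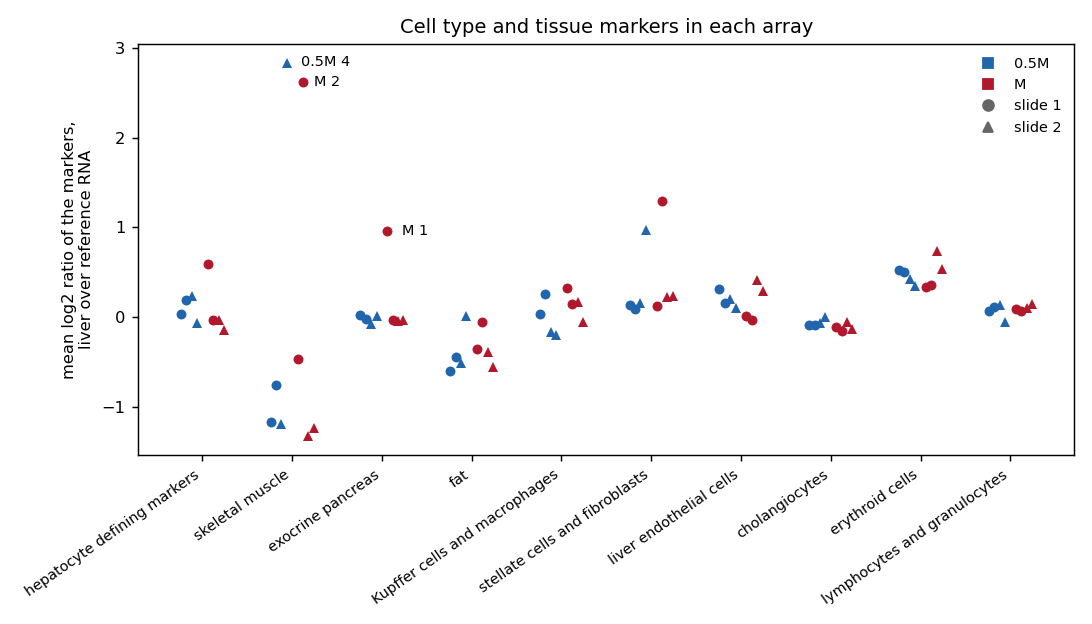
Mean log2 ratio of liver over reference RNA across the markers of each cell type or tissue (vertical axis), 1 point per array, with 0.5M in blue, M in red, circles for slide 1 and triangles for slide 2. Skeletal muscle reached 2.62 in M 2 and 2.84 in 0.5M 4 against -1.33 to -0.47 in the other arrays, and exocrine pancreas reached 0.96 in M 1.

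Between the doses 2 of 11689 transcripts passed the test, both higher in M (limma, Benjamini-Hochberg adjusted p under 0.05). That is 0.0171% of the transcripts tested. At an unadjusted p under 0.05 there were 405 higher (3.46%) and 307 lower (2.63%), together 712 (6.09%), where chance alone would give 584.45. All M arrays lay above all 0.5M arrays for 173 transcripts (1.48%) and below them for 161 (1.38%). Of all differences 50.5% were above 0, with a median of 0.0012 on the log2 scale. All members of the gene lists described below missed the threshold, and their values are given without a call.

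Ceacam4 (NM_173339), a cell adhesion molecule of the carcinoembryonic antigen family, gave the largest difference of all. Its log2 ratios to the reference were 2.11, 1.33, 2.55 and 2.32 in M 1 to M 4, and 0.34, 0.10, 0.15 and 0.15 in 0.5M 1 to 0.5M 4. The lowest M array, M 2, stood well clear of the highest 0.5M array, and the 4 control arrays lay lower still, from -0.53 to -0.22. Ceacam4 rose 3.71-fold between the doses (1.89 ± 0.20 on the log2 scale, SE, 4 arrays in each group, 95% interval 1.43 to 2.35, adjusted p = 0.0308). The interval lies wholly above 1, the log2 of the ratio of 2 between the doses. The difference was 1.50 on slide 1 and 2.28 on slide 2. Its probe stood well above background on all 8 arrays. The 250 bases before its RefSeq start site (GRCr8, chr1:89504305-89504554 (+ strand)) are shown because it is the transcript with a symbol that passed the test, and a GCGTG core was not found there on either strand.
Ceacam4: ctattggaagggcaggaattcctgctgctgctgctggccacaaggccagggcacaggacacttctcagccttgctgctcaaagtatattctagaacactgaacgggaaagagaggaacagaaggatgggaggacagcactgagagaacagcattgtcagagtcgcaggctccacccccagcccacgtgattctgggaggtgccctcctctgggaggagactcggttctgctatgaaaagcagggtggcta

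The other transcript that passed is known on the array only by the GenBank accession M33747, and no symbol was matched to it. Its log2 ratios were -1.97, -2.05, -1.87 and -1.97 in M and -3.05, -2.91, -2.77 and -3.15 in 0.5M. The M arrays lay within a narrow band, and the 2 groups did not overlap. It rose 2.01-fold (1.01 ± 0.10 on the log2 scale, 95% interval 0.78 to 1.23, adjusted p = 0.0308), a fold close to the ratio of the doses. The controls ranged from -3.47 to -2.35 and so overlapped the 0.5M arrays.

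Both calls depended on single arrays. Leaving out M 2, which like 0.5M 4 carried muscle transcripts, left both past the threshold (Ceacam4 adjusted p = 6.4e-04, M33747 adjusted p = 0.0293). Leaving out any of the other arrays left neither past it. For Ceacam4 the adjusted p was 0.199 without M 1, 0.159 without M 3, 0.126 without M 4, 0.0553 without 0.5M 1, 0.177 without 0.5M 2, 0.152 without 0.5M 3 and 0.168 without 0.5M 4. M33747 gave 0.199, 0.159, 0.126, 0.0890, 0.168, 0.0560 and 0.0734 in the same order. The differences themselves ranged little, from 1.77 to 2.13 for Ceacam4 and from 0.92 to 1.07 for M33747. With no filter on dim probes the adjusted p was 0.128 for Ceacam4 and 0.0599 for M33747, and with median centring or on slide 1 alone neither passed. Without both arrays that held muscle (M 2 and 0.5M 4), 6 transcripts passed. These were Ceacam4, M33747, Cyp2b2, Cyp1a2, Gsta5 and Gsta2.

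**Figure D2:**
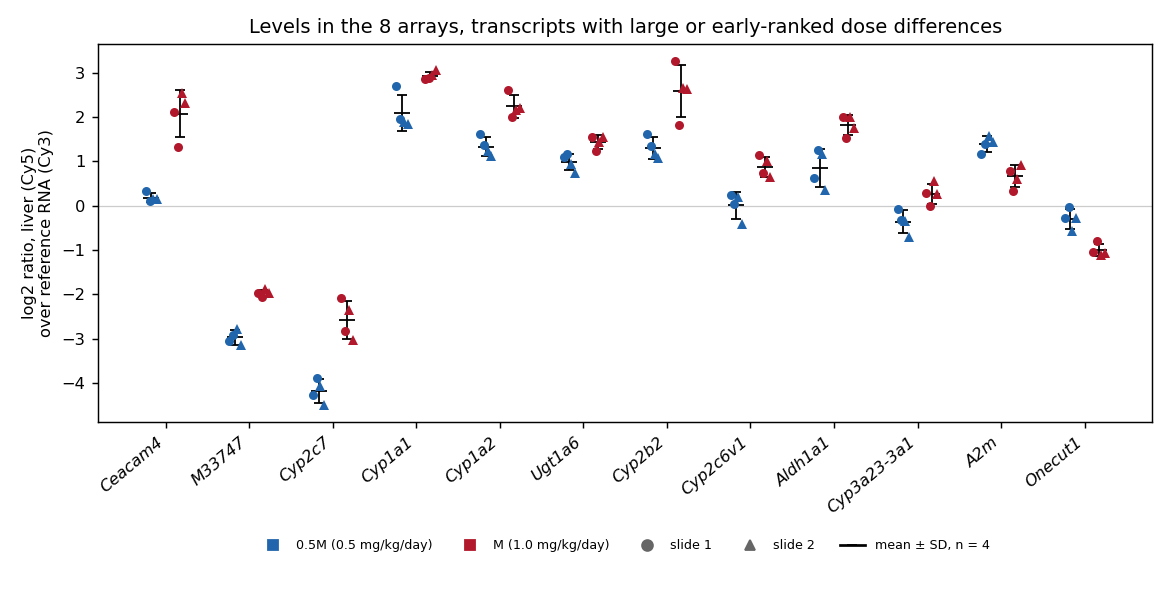
Log2 ratio of liver over reference RNA (vertical axis) for 12 transcripts, 1 point per array, with 0.5M in blue, M in red, circles for slide 1, triangles for slide 2, and bars for the mean ± SD of 4 arrays. The M points of Ceacam4 and M33747, the 2 transcripts past the threshold, all lie above the 0.5M points, and the other 10 missed the threshold.

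The nearest to the threshold was Cyp2c7 (NM_017158), a P450 of retinoid and steroid metabolism whose level in adult rats is higher in females and set by growth hormone. Its log2 ratios were -2.09, -2.83, -2.36 and -3.02 in M and -4.27, -3.88, -4.06 and -4.49 in 0.5M, with controls from -5.03 to -4.20. Every M array lay above every 0.5M array. The log2 difference was 1.60 ± 0.20 (95% interval 1.14 to 2.05, adjusted p = 0.0782), and it was alike on the slides, 1.61 and 1.58. A pair of further probes for Cyp2c7 gave 1.54 and 2.08. Cyp2c7 passed in 7 of 27 other settings. These included the fits without M 2 (adjusted p = 0.0293) and with all 16 arrays in a single model (adjusted p = 0.00434). It missed with median centring and with the scanner's log ratio (adjusted p = 0.382). It also missed on slide 1 alone (adjusted p = 0.918) and without M 2 and 0.5M 4 (adjusted p = 0.0872). In the list of 25 sex- and hormone-patterned liver genes that it belongs to, 0 passed, 16 were above 0 and the median log2 difference was 0.13. That balance turned with median centring (11 above 0, median -0.04), on slide 2 alone (12 above, -0.03), without M 1 (12 above) and without M 1, M 2 and 0.5M 4 (8 above, -0.11). Cyp2a1, a testosterone hydroxylase, gave 0.73 ± 0.20, and Bcl6, a repressor that is higher in male liver, gave 0.80 ± 0.24. Of the 25 genes, Cyp2c7 alone had all M arrays above all 0.5M arrays. Cyp17a1, a steroid hydroxylase, gave -0.35 ± 0.11 with all M arrays below all 0.5M arrays.

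Most targets of the aryl hydrocarbon receptor had values above 0 in M against 0.5M, but none passed the test. Of 12 genes listed, 10 were on the array and 8 were measured. Of these 8, 0 were called (0.0171% of all transcripts were). An unadjusted p under 0.05 in the direction of M was found for 4 (3.46% of all transcripts). Among these was Cyp1b1, well above background on 3 M arrays and 1 0.5M array, so it met the filter mainly through M. For 3 of the 8, all M arrays lay above all 0.5M arrays (1.48%). The median log2 difference was 0.53, beside 0.0012 for all transcripts. It was 0.23 on slide 1 and 0.82 on slide 2. The mean of the list was 0.83 to 1.24 per array in M, 0.50 to 0.77 in 0.5M and -0.26 to -0.08 in C. All M arrays therefore lay above all 0.5M arrays, and both groups above the controls. With median centring in place of loess, 6 of 8 were above 0 and the median was 0.35.

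Cyp1a2 (NM_012541), the hepatic P450 that oxidises aromatic amines, came closest among them. Its log2 ratios were 2.61, 1.99, 2.16 and 2.21 in M and 1.61, 1.36, 1.23 and 1.13 in 0.5M, with controls from 0.03 to 0.89. Both dose groups lay above the controls and did not overlap each other. The difference was 0.91 ± 0.14 (95% interval 0.61 to 1.22, adjusted p = 0.195). Without M 2 it was 1.06 and passed (adjusted p = 0.0129), but Cyp1a2 passed in only 2 of 27 other settings.

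Cyp1a1 (NM_012540), the receptor's most inducible target, had log2 ratios of 2.86, 2.89, 2.94 and 3.05 in M and 2.69, 1.96, 1.88 and 1.85 in 0.5M. The M arrays were nearly equal, while 0.5M 1 stood close to them and far from the other 0.5M arrays. The controls lay between -2.01 and -1.08, below every exposed array. Between the doses the difference was 0.84 ± 0.17 (95% interval 0.45 to 1.22, adjusted p = 0.398). Without 0.5M 1, the 0.5M array nearest to M, it was 1.04 and passed (adjusted p = 0.0333). Cyp1a1 passed in 1 of 27 other settings. Cyp1b1, a P450 of the same family that is low in hepatocytes, gave 0.60 ± 0.17 and stood well above background on 3 of 4 M arrays but on 1 of 4 0.5M arrays.

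Ugt1a6, which glucuronidates phenols, gave 0.46 ± 0.12 with log2 ratios of 1.56, 1.23, 1.43 and 1.55 in M and 1.10, 1.16, 0.94 and 0.74 in 0.5M. The groups were adjacent and did not overlap, and a further probe gave 0.28. Nqo1, a quinone reductase, gave 0.41 ± 0.21 with overlapping groups. Gsta2, an alpha class glutathione transferase, gave 0.73 ± 0.43. Its values were 1.00, -0.86, 0.86 and 0.95 in M and -0.20, -0.11, -1.07 and 0.38 in 0.5M, so M 2 lay under 3 of the 0.5M arrays. Nfe2l2 and Cyp2s1 differed by 0.00 each. The receptor gene Ahr itself gave 0.19 ± 0.11.

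Of the 8 AhR targets measured, 7 had an entry in the promoter table, and GCGTG occurred on either strand in the window from 250 bases before to 50 after the start in 4 of them. It occurred in 29.7% of all 33469 windows and in 49.1% of the 6690 windows of tested transcripts. Cyp1a1 has no entry, and Cyp1a2, the target with the smallest p, holds 0 cores. Among CAR and PXR targets 5 of 16 windows held a core. Ugt1a6 (GRCr8, chr9:96194768-96195017 (+ strand)) is shown as the target with all M arrays higher that holds a core, at bases -133 to -129 from the start. Cyp2b2 (chr1:90722031-90722280 (+ strand)), the CAR target with the largest difference, holds a core at -103 to -99. The 250 bases before the start are given on the strand of each gene, and capitals mark the core.
Ugt1a6: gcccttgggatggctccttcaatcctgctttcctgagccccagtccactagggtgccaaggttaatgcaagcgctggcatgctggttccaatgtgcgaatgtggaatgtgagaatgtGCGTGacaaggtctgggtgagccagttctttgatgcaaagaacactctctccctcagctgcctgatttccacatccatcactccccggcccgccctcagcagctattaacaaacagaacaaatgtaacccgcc
Cyp2b2: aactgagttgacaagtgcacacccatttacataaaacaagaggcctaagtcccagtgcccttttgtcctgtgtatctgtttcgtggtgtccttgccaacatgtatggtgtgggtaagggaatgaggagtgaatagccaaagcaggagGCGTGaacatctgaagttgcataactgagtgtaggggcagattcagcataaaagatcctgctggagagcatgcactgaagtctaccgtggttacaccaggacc

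CAR and PXR targets showed the same side of 0 as the AhR targets, again with 0 of 18 measured members past the test (of 24 listed, 21 were on the array). Of the 18, 16 were above 0 (50.5% of all transcripts were). At an unadjusted p under 0.05 there were 7, all higher in M (3.46% of all transcripts). All M arrays lay above all 0.5M arrays for 5 (1.48%). The median log2 difference was 0.33. The list mean was 0.25 to 0.53 per array in M, against -0.07 to 0.15 in 0.5M and -0.42 to -0.26 in C. With median centring, 11 of 18 were above 0 and the median was 0.19.

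Cyp2b2 (NM_001198676), the phenobarbital-inducible P450 that marks CAR activity, had log2 ratios of 3.26, 1.82, 2.65 and 2.63 in M and 1.62, 1.35, 1.16 and 1.08 in 0.5M. M 2 was the lowest of the M arrays and still above every 0.5M array, and the controls lay from -0.69 to -0.35. The difference was 1.29 ± 0.26 (95% interval 0.70 to 1.88, adjusted p = 0.398). Without M 2 it was 1.63 and passed (adjusted p = 0.00101), as it did on slide 2 alone (1.52, adjusted p = 0.0362). Cyp2b2 passed in 3 of 27 other settings. Another probe gave 0.81. Cyp2b2 has a near-identical neighbour, Cyp2b1, and an array probe may read both, so which of them it reports is uncertain.

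Cyp2c6v1, another P450 that phenobarbital-like chemicals induce, gave 0.86 ± 0.16 with log2 ratios of 1.14, 0.74, 1.00 and 0.65 in M and 0.25, 0.03, 0.20 and -0.42 in 0.5M (adjusted p = 0.325). The groups stood apart, and the controls lay lower, from -1.23 to -0.59. Aldh1a1, which makes retinoic acid from retinaldehyde, had 0.63, 1.25, 1.16 and 0.35 in 0.5M and at least 1.52 on every M array. It gave 0.97 ± 0.21 (adjusted p = 0.483). Cyp3a23-3a1, the classic PXR target, gave 0.64 ± 0.16 and Gadd45b, a stress gene that CAR induces, 0.43 ± 0.10, both without overlap. The transporter Abcc3 gave 0.07 ± 0.13, and the reductase Por, which feeds electrons to every microsomal P450, 0.16 ± 0.14. Akr1b7, an aldehyde reductase, gave -0.50 ± 0.25. The receptor genes themselves gave 0.40 ± 0.16 for Nr1i3 (CAR) and 0.07 ± 0.10 for Nr1i2 (PXR).

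**Figure D3:**
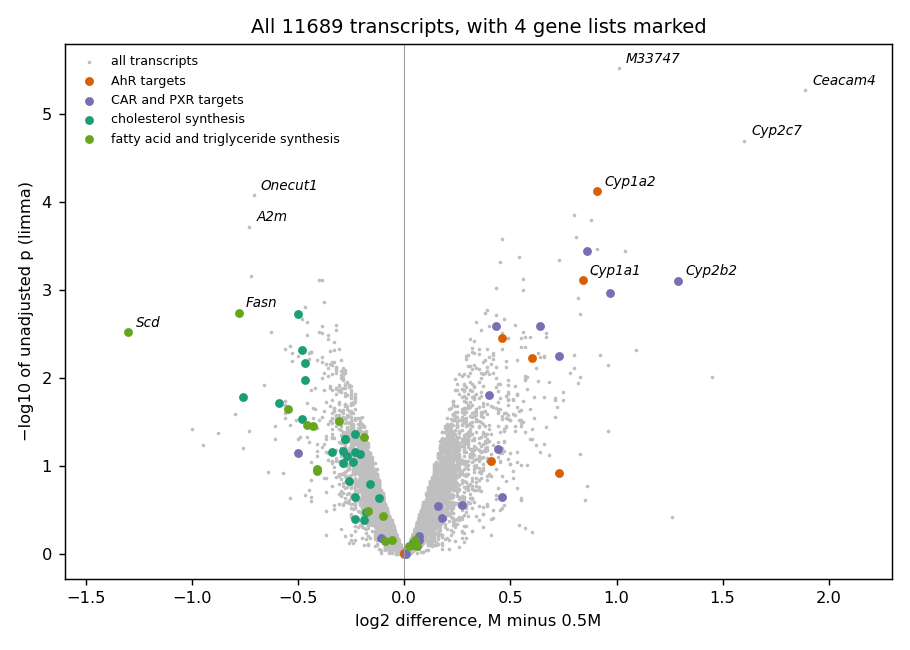
Log2 difference between M and 0.5M (horizontal axis) against the -log10 of the unadjusted limma p (vertical axis) for 11689 transcripts, with the members of 4 gene lists coloured. AhR, CAR and PXR targets lie mostly to the right of 0, with list medians of 0.53 and 0.33, and the cholesterol and fatty acid synthesis lists mostly to the left, with medians of -0.27 and -0.25.

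Conjugating enzymes gave smaller differences. Of 19 glutathione transferases measured, 0 were called, 15 were above 0 and the median was 0.21 (0.03 with median centring). At an unadjusted p under 0.05, 5 were higher (3.46% of all transcripts) and 1 lower (2.63%). Gstm2, a mu class enzyme, had -1.69, -1.18, -1.49 and -1.04 in 0.5M. All M arrays were higher, up to -0.63, and the difference was 0.57 ± 0.15. Gsta4, which clears the lipid aldehyde hydroxynonenal, gave 0.59 ± 0.15, Gsta3 0.30 ± 0.11 (0.17 by a further probe) and the membrane-bound Mgst3 0.23 ± 0.08. Gsta5, an alpha class enzyme, gave 0.96 ± 0.40 with 1.73, -0.44, 0.89 and 0.96 in M, where M 2 again stood apart, and -0.32, 0.29, -0.62 and -0.04 in 0.5M. Without M 2 and 0.5M 4, Gsta5 gave 1.64 (adjusted p = 0.0325) and Gsta2 1.56 (adjusted p = 0.0407). As Gsta2 and Gsta5 are close copies, their probes may read each other's transcripts. The part of the muscle RNA in these values was not tested.

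Among 13 glucuronosyl- and sulfotransferases 0 were called, 10 were above 0 and the median was 0.13 (0.01 with median centring, -0.01 on slide 1 alone). Ugt2b15, which glucuronidates androgens, was the steadiest, with -0.88, -0.78, -0.72 and -0.80 in M and -1.34, -1.29, -1.12 and -1.27 in 0.5M. Its groups stood apart by a small difference of 0.46 ± 0.08 (95% interval 0.28 to 0.64, adjusted p = 0.309). Ugt2b37 gave 0.52 ± 0.13 and Sult1b1, which sulfates thyroid hormone, 0.82 ± 0.18, both without overlap. Sult2a6, a hydroxysteroid sulfotransferase, lay the other way at -0.31 ± 0.08.

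Genes of cholesterol synthesis lay lower in M almost throughout, though none passed the test. All 25 genes listed were measured. Of them 24 were below 0, and 10 had an unadjusted p under 0.05 (2.63% of all transcripts did so in this direction). All M arrays lay below all 0.5M arrays for 2 (1.38% of all transcripts). The median log2 difference was -0.27, from -0.43 to -0.22 over 27 other settings, including -0.30 without M 2 and 0.5M 4. The list mean was 0.06, -0.04, 0.08 and -0.02 in M and 0.11, 0.37, 0.46 and 0.39 in 0.5M. The 2 groups did not overlap, but 0.5M 1 lay just above the highest M array, and the controls spread over both groups at -0.01, 0.37, 0.40 and -0.24.

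By role, Hmgcs1, which makes hydroxymethylglutaryl-CoA early in the pathway, gave -0.47 ± 0.14 with 1.17, 0.84, 0.65 and 0.43 in M and 1.07, 1.55, 1.21 and 1.15 in 0.5M, where M 1 overlapped the 0.5M arrays. Sqle, the first oxygen-dependent step, had the smallest p of the list, with 0.01, 0.36, 0.63 and 0.57 in M and 0.52, 0.92, 1.01 and 1.11 in 0.5M. It gave -0.50 ± 0.12 (95% interval -0.76 to -0.24, adjusted p = 0.629). Msmo1, a sterol demethylation enzyme, had 0.39, 0.40, 0.27 and 0.11 in M and 0.51, 0.74, 0.76 and 1.07 in 0.5M. Every M array was lower, with a difference of -0.48 ± 0.13. Lss, which closes the sterol rings, gave -0.59 ± 0.21. Insig1, which holds the SREBP proteins in the endoplasmic reticulum when sterols are plentiful, gave the lowest value of the list at -0.76 ± 0.26, from -1.74 to -0.41 in M and -0.82 to -0.01 in 0.5M. The transcription factor Srebf2 gave -0.12 ± 0.09.

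Fatty acid and triglyceride synthesis showed the same side of 0. Of 20 genes listed 16 were measured, of which 0 were called and 13 lay below 0. An unadjusted p under 0.05 was found for 7, all lower in M (2.63% of all transcripts). For 2, all M arrays lay below all 0.5M arrays (1.38%). The median was -0.25, from -0.47 to -0.18 over the other settings. The list mean was -0.74 to -0.63 in M, -0.60 to -0.06 in 0.5M and -0.80 to -0.27 in C, so here too the controls spanned the M arrays and part of the 0.5M arrays.

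Scd, which places the double bond in stearic acid, had log2 ratios of -4.08, -4.13, -4.55 and -4.70 in M and -3.55, -1.69, -3.70 and -3.34 in 0.5M. All M arrays were lower, and 0.5M 2 stood far above the other 0.5M arrays. The difference was -1.30 ± 0.33 (95% interval -2.03 to -0.56, adjusted p = 0.658), and the controls ranged from -4.65 to -2.68. Fasn, the fatty acid synthase, had -1.85, -1.47, -1.86 and -1.65 in M and -1.26, -0.48, -1.22 and -0.76 in 0.5M. Its groups did not overlap and differed by -0.78 ± 0.18 (95% interval -1.18 to -0.37, adjusted p = 0.629). Elovl6, which lengthens fatty acids, gave -0.55 ± 0.20. Fads1, a desaturase, gave -0.46 ± 0.19, and Acss2, which makes acetyl-CoA from acetate, -0.43 ± 0.17. The transcription factor Mlxipl gave -0.06 ± 0.15.

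**Figure D4:**
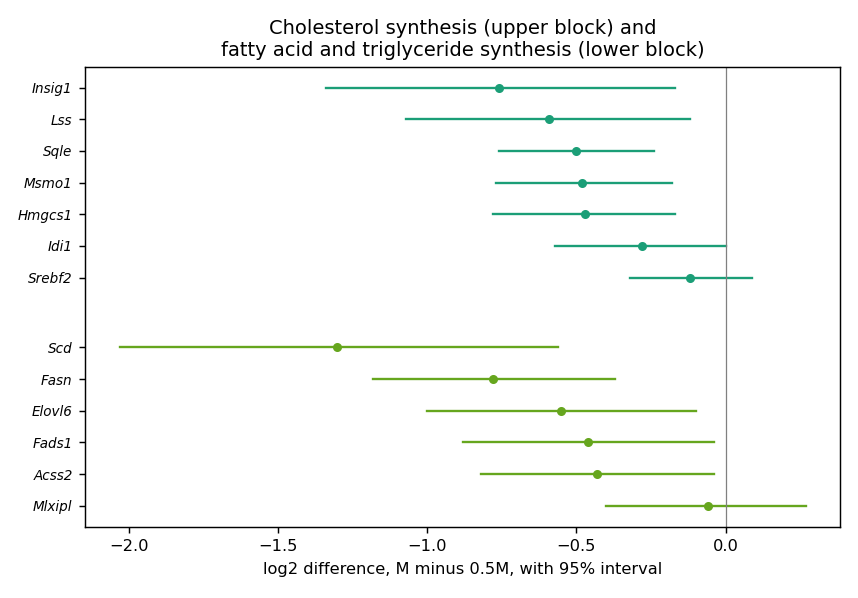
Log2 difference between M and 0.5M with its 95% interval, not adjusted for the number of genes, for the genes of cholesterol synthesis (upper block) and of fatty acid and triglyceride synthesis (lower block) that are described by name. Insig1 at -0.76 and Scd at -1.30 lie farthest to the left of their blocks. The genes drawn were picked with their values known, and all their points lie to the left of 0. Of the measured genes, 1 of 25 for cholesterol and 3 of 16 for fatty acids lay above 0, and these are not drawn.

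In the promoter windows, CCAAT, which binds the factor NF-Y that acts beside SREBP, was found on either strand in 14 of 17 cholesterol synthesis genes with an entry and in 8 of 12 of the fatty acid list. It was found in 37.5% of all windows and in 39% of those of tested transcripts. The sterol element TCACNCCAC was in 0 of either list and in 1.12% of all windows, and the search covered these letters alone. Hmgcs1 (GRCr8, chr2:53382054-53382303 (+ strand)) and Idi1 (chr17:66547525-66547774 (- strand)), which isomerises the isoprenoid unit and gave -0.28 ± 0.13, are shown because each holds 2 matches. Insig1, the lowest of its list, holds 1 match and Scd, the lowest of the fatty acid list, 0. The unfolded protein response list, with a median difference of -0.05, also had CCAAT in 14 of 17 windows. In Hmgcs1 and Idi1 all 4 matches lie on the strand opposite to the gene, so the capitals read ATTGG.
Hmgcs1: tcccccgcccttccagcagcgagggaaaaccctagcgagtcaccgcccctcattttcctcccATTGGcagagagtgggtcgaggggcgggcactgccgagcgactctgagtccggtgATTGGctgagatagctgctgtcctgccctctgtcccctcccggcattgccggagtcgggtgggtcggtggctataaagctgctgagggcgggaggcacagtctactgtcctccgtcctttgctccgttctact
Idi1: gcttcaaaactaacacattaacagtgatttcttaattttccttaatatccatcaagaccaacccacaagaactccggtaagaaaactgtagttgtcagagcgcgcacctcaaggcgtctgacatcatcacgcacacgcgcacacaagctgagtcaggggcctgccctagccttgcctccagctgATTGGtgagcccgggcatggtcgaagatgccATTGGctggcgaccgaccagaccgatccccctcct

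Genes of bile acid synthesis and transport were split, with 9 above 0 and 8 below among 17, and 0 called. With median centring 4 were above 0 (median -0.17), 6 with the authors' deposited table and 7 with the scanner's log ratio. Nr1h4, the bile acid receptor FXR, had -0.78, -0.64, -0.26 and -0.45 in M and -0.01, -0.11, -0.15 and 0.02 in 0.5M. All M arrays lay lower, with a difference of -0.47 ± 0.11, but a further probe well above background on all 8 arrays gave -0.14. Cyp7a1, the rate-limiting enzyme of bile acid synthesis, gave -0.56 ± 0.20, and Abcg5, of the pair that exports sterols into bile, -0.80 ± 0.30. Akr1d1, a reductase of the same pathway, gave 0.48 ± 0.14. Among 15 apolipoproteins and lipid carriers 0 were called. Apoa2, a main protein of high-density lipoprotein, had -1.76, -3.06, -2.01 and -3.01 in M and -3.21, -3.44, -3.97 and -3.58 in 0.5M, a difference of 1.09 ± 0.29 without overlap.

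Onecut1, a transcription factor of hepatocytes and bile duct cells, had the smallest p of the lower transcripts with a symbol. Its log2 ratios were -1.04, -0.80, -1.10 and -1.06 in M and -0.28, -0.03, -0.58 and -0.27 in 0.5M. The groups did not overlap and differed by -0.71 ± 0.11 (95% interval -0.95 to -0.47, adjusted p = 0.195), with controls from -0.77 to 0.27, a range that held all 0.5M arrays and lay above all M arrays. A2m, a protease inhibitor that is an acute phase protein in rats, had 0.79, 0.34, 0.61 and 0.91 in M and 1.16, 1.40, 1.57 and 1.44 in 0.5M. It gave -0.73 ± 0.12 (95% interval -1.01 to -0.46, adjusted p = 0.278), a further probe gave -0.78, and the controls lay higher, from 1.59 to 1.85. Of the 21 acute phase proteins measured 0 were called, and their median was 0.05. Its sign depended on scaling and on M 1, at -0.22 with median centring, -0.05 with the authors' deposited table and -0.10 without M 1.

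Among the other transcripts with the smallest p, Hmgb1, a chromatin protein, gave 0.80 ± 0.13 without overlap, but further probes for it gave 0.02 and 0.23. Il1rn, the interleukin-1 receptor antagonist, gave 0.73 ± 0.14. Plvap, which forms the diaphragms of endothelial pores, gave 0.43 ± 0.09, and Vegfa, the endothelial growth factor, 0.56 ± 0.11 with overlapping groups. The probes for Vegfa disagree in direction, as the further ones gave -0.18, 0.39 and -0.02. Spink1l, a trypsin inhibitor family member, gave 0.81 ± 0.14 with overlapping groups, and Sbk1, a kinase, 0.56 ± 0.12 against 0.09 by a further probe. Fcer1g and Tnfaip8l2, genes of immune cells, gave 0.38 ± 0.09 (0.23 by a further probe) and 0.39 ± 0.09. Their adjusted p-values ran from 0.268 for Hmgb1 to 0.629.

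Metallothioneins Mt1 and Mt2A, which bind metals including mercury, gave 0.82 ± 0.26 and 0.75 ± 0.25, with all M arrays higher. The metallothionein and heat shock list that holds them had 6 of 14 members above 0 and a median of -0.06. For Mt1 the values were 2.05, 0.79, 1.09 and 0.93 in M and 0.13, 0.49, 0.74 and 0.23 in 0.5M, where M 1 was the highest and the controls spanned 0.17 to 1.58. Among 14 selenoproteins and thiol enzymes of the kind mercury binds, 7 were above and 7 below 0, but 2 were above with median centring or on slide 2 alone and 9 on slide 1 alone. Sephs2, which supplies selenium for selenoproteins, gave the smallest p there, at -0.53 ± 0.15. The kinase Sgk1, a glucocorticoid target, gave -0.48 ± 0.11 and the chaperone Pdia6 -0.34 ± 0.10, both without overlap.

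Genes of the liver lobule's zones leaned to opposite sides, with 0 called. Of 12 pericentral genes 11 were above 0 (median 0.18, 0.06 with median centring), and of 17 periportal genes 13 were below 0 (median -0.13). On slide 1 alone 6 of the 12 pericentral genes were above 0. The pericentral list shares Cyp1a2 and Aldh1a1 with the receptor lists, and its ammonium transporter Rhbg gave 0.39 ± 0.17. Among periportal genes Cps1, the entry enzyme of the urea cycle, gave -0.54 ± 0.22 and Aldh1b1 -0.46 ± 0.12, while Pigr, which carries antibodies into bile, gave 0.49 ± 0.13. Of 14 Kupffer cell and macrophage markers 13 were above 0 (median 0.14, 0.05 with median centring), among them the lectin Clec4f at 0.37 ± 0.11 and Cd14 at 0.57 ± 0.17. The list mean overlapped between groups, at -0.06 to 0.36 in M and -0.22 to 0.28 in 0.5M.

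**Figure D5:**
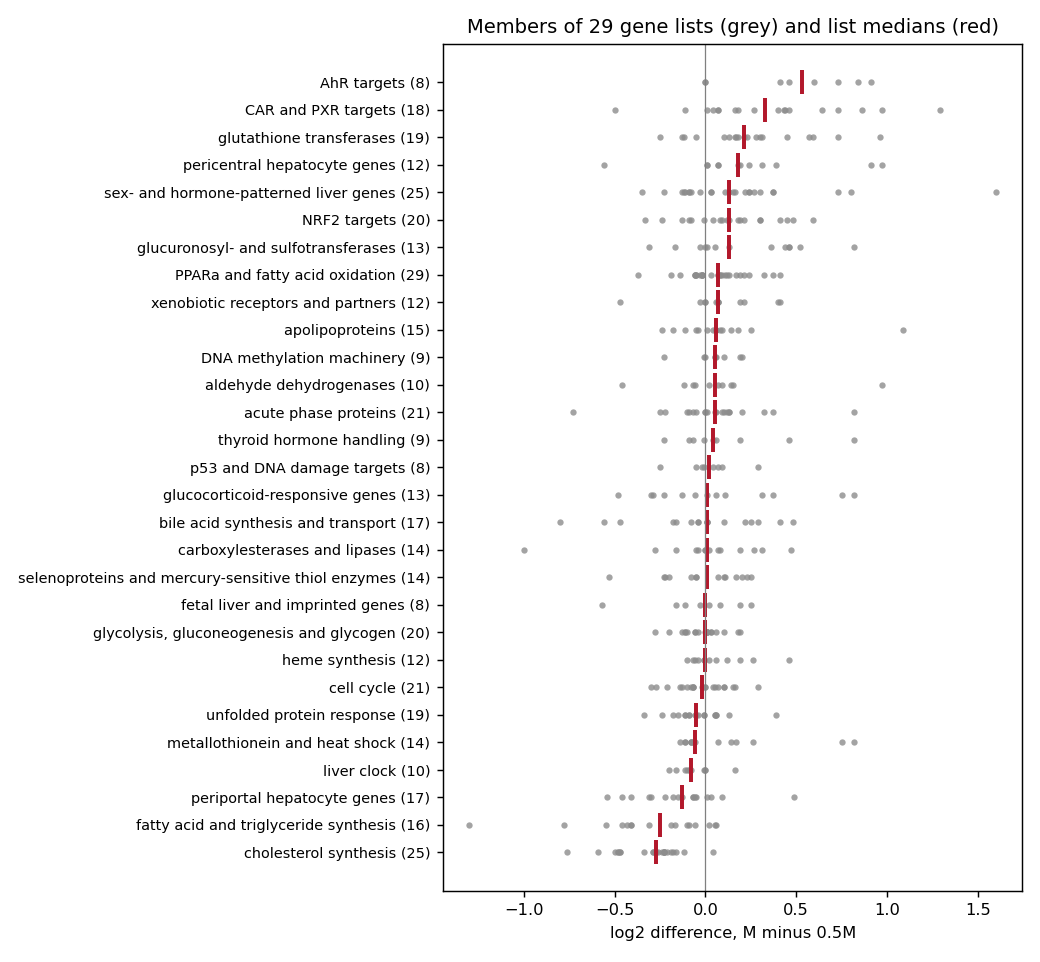
Log2 difference between M and 0.5M (horizontal axis) for each measured member (grey points) of 29 gene lists, with the number measured in brackets and the list median as a red bar. Medians run from -0.27 for cholesterol synthesis to 0.53 for AhR targets, and the lists share some members.

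The remaining pathway lists had medians between -0.08 and 0.13. No transcript with an unadjusted p under 0.05 was found among 29 genes of PPARa and fatty acid oxidation (median 0.07, -0.17 with median centring), 12 of heme synthesis, 10 of the liver clock, 20 of glycolysis, gluconeogenesis and glycogen, 8 of p53 and DNA damage or 8 fetal liver and imprinted genes. The smallest p among them belonged to Fgf21 (-0.37 ± 0.18), Alad (0.26 ± 0.13), Bhlhe40 (-0.16 ± 0.11), Gys2 (-0.20 ± 0.09), Cdkn1a (0.29 ± 0.16) and Mest (0.25 ± 0.14) in that order. In the cell cycle list a single member had such a p (Ccnb2, a mitotic cyclin, -0.30 ± 0.10). Of 14 lipases and esterases 2 were higher and 2 lower at such a p (3.46% and 2.63% of all transcripts), among them Aadac at -0.28 ± 0.08. Of 20 NRF2 targets 14 were above 0 (8 with median centring), and the members with such a p were Gsta3 and Gsta4.

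In size, 9 transcripts differed by more than 1 on the log2 scale, the log2 of the dose ratio. Besides Ceacam4, M33747, Cyp2c7, Cyp2b2, Apoa2 and Scd, described above, these were Ubd, Actg2 and a transcript with no symbol. Of the 9, Ceacam4 and Cyp2c7 had a 95% interval wholly beyond 1, with lower limits of 1.43 and 1.14. The 9 were picked by the same values, the intervals are unadjusted, and Cyp2c7 did not pass the test. For Cyp1a1, Cyp1a2 and Cyp2b2 the intervals of 0.45 to 1.22, 0.61 to 1.22 and 0.70 to 1.88 all hold 1.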

How the data were processed

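Per the file headers, the deposited scan files, written by Feature Extraction (Agilent, 10.7.3.1), give for each of 62976 spots the median signal and background intensity of both colours, a LogRatio on the log10 scale and quality marks of the unit other (0 or 1). The value table that the authors deposited is on the log2 scale. Against the scan files it held Cy5 over Cy3 (correlation 0.977 to 0.998 with its own array, at most 0.878 with any other, column medians -0.009 to 0.012); how it was made is not given in the sources used here.

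From the scan files, signals were background-corrected (normexp, offset 50) and loess-normalized within each array in limma 3.58.1 (R 4.3.3, data.table package, version 1.17.8), with control spots at no weight and spots with outlier marks left out. A probe was kept if its Cy5 signal was marked well above background on 4 or more of the 8 arrays (12843 of 30367). Symbols came from RefSeq accessions (18004 probes with a symbol, 12363 without), and the brightest probe stood for a gene, which left 11689 transcripts, 7683 with a symbol. M and 0.5M were compared by lmFit and eBayes with slide as a term (9.29 degrees of freedom), two-sided, with Benjamini-Hochberg adjustment over all 11689. Intervals are 95% and unadjusted. No dyes were swapped. The script was tested on simulated data.

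Named were the largest called differences, the 20 transcripts with a symbol and the smallest p, 16 genes of receptor responses, and from 39 gene lists the called members or, failing these, the member of smallest p, 55 in all. List members beyond these, and the genes larger than the dose ratio, were chosen after their values were seen. Some genes of the lists are not reported here by name. The comparison, the members and the lists were chosen with earlier results of these data known. Alternatives changed background correction, normalization, filters, probes, slide handling, weights, the arrays included and the replicate number as a block. Promoter windows are RefSeq's (GRCr8), which was used for no other coordinates.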

Additional observations from a re-analysis of the deposited data

Results flagged for a closer look

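Of 110 groups of 4 arrays (55 transcripts, 2 dose groups), 5 held an array far from the other 3 by Dixon's ratio, where chance gives about 5.5. Cyp1a1 was at 2.69 in 0.5M 1 against 1.85 to 1.96 in the other 0.5M arrays. Abcc3 was at 0.42 in the same array against 0.65 to 0.69. Tpm2, a tropomyosin on the muscle list, was at 3.23 in M 2 against -0.25 to 0.04, and Ctrb1, a pancreatic protease precursor, at 3.05 in M 1 against -0.17 to -0.13. Ehd3, a marker of liver endothelium, was at 0.25 in 0.5M 3 against -0.18 to -0.14.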

How the results depend on the processing

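The count of called transcripts, 2 in the reported fit, was 2 or 3 without background subtraction, with Aquantile, the authors' table, the filter on all 8 arrays, mean probes, spots with outlier marks, no or a random slide term, array weights, trend with robust estimation, all 16 arrays, slide 2 alone, and without M 1, M 2 and 0.5M 4 together, which leaves M on slide 2 alone. With all 16 arrays M33747 was not called (adjusted p = 0.254) and Cyp2c7 was. The count was 0 with the scanner's log ratio, median centring, no filter on dim probes, slide 1 alone, or the replicate block, and 6 without M 2 and 0.5M 4. Leaving out single arrays gave 0 to 5. The replicate block gave an adjusted p of 0.0788 for both called transcripts. Deviations of same-numbered arrays of M and 0.5M had correlations of 0.04, -0.23, 0.38 and -0.16, and replicate 3 alone correlated best with its own number. Such arrays also share a slide. The labels do not say that the number pairs arrays, and these few correlations cannot exclude it. No call was lower in M in any of these fits. Transcripts with an unadjusted p under 0.05 numbered 16 higher and 21 lower with median centring, and 759 and 644 with no filter.

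Of the comparisons of named transcripts with their reported value, 1424 kept sign and side of the threshold, 27 lost and 13 gained the call, and 7 changed sign, all uncalled. These were Abcc3 (-0.22) and Ahsp (-0.22) on slide 1 alone, Alad (-0.03) with median centring, Tpm2 (-0.40 on slide 2 alone, -0.03 to 1.27 over the fits that leave out an array) and Col1a2 (-0.07 and -0.01 to 0.86 in the same fits). The negative values of the last 2 came without M 2. The cause was not tested. Low probe counts above background in M 1 (7082) limit dim genes.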

Other observations

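Ubd, a ubiquitin-like protein that inflammatory signals induce, was among the transcripts that differed by more than the dose ratio and belongs to none of the lists. Its log2 ratios were -0.09, 0.07, -0.10 and -1.84 in M and -2.88, -1.45, -1.90 and -1.53 in 0.5M, a difference of 1.45 ± 0.45 that did not pass (adjusted p = 0.684). M 1, M 2 and M 3 stood above all 0.5M arrays, while M 4 lay among them. Actg2, a smooth muscle actin, gave 1.26 ± 1.37 and rested on M 2, at 4.62 against -2.58 to -1.10 in the other M arrays. Its next highest array was 0.5M 4, at 0.52, and these are the arrays with skeletal muscle transcripts. Both were chosen after their values were seen.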
